A study of Homo sapiens with 12 samples.

Results

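The data described here are the 5 vehicle-treated arrays, out of 12 arrays in all, of a study that exposed melanoma cell lines to the RAF inhibitor PLX4032. They were chosen by label alone: every array labelled DMSO was taken, and no array of drug-treated cells. The lines are SkMel-1, SkMel-5 and SkMel-28, together with SkMel-19 and Malme3M, all labelled as carrying the BRAFV600E mutation, a valine-to-glutamate change that keeps the kinase BRAF active. All were grown in RPMI 1640 medium with 10% fetal bovine serum, treated at 70% confluency with 0.1% DMSO, the solvent of the drug, and harvested after 8 h. Each line is represented by 1 DMSO array, so a difference between lines cannot be told apart from a difference between the cultures, RNA extracts or hybridisations of those lines. The study also holds 1 array of each line at 250 nM PLX4032 for 8 h, and 1 array each of SkMel-19 and Malme3M at 1000 nM. The 250 nM arrays serve below as a second array of each line. The cells are tumour lines grown alone in culture.

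Melanoma arises from melanocytes, the pigment cells of the skin, which derive from the neural crest. The transcription factors MITF and SOX10 hold cells in the melanocyte lineage and drive the genes that build melanosomes and make melanin. BRAF is a kinase of the RAF-MEK-ERK pathway, which carries growth signals from receptors at the cell surface to the nucleus. Lines that share this mutation come from tumours of different people, and melanoma lines are known to differ in pigmentation, adhesion molecules, surface receptors, antigen presentation and the re-expression of germline genes. The comparison among the 5 DMSO arrays asks what such lines share and where they differ before drug is added.

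The arrays are Affymetrix gene expression arrays, and each value is the signal of 1 probe set, a group of short probes against 1 transcript. A signal depends on the probes as well as on the RNA, so differences were read between lines for the same probe set. Signals of different genes were ranked together for the filter and for the top 5% class below. Membership of these therefore depends on the probes too. Of 22277 probe sets, those with 1 gene symbol gave 11939 named genes, each read by whichever of its probe sets had the highest mean over all 12 arrays. The 7163 genes whose mean log2(signal + 12) over the same 12 arrays reached the 40th percentile, a signal of 86.6 called the filter level below, were tested. On the DMSO arrays the ratio of 3' to 5' probe sets of GAPDH was 0.899 to 0.962 and that of ACTB 1.06 to 1.13. The arrays were thus alike in this measure of RNA quality. Their median signals ran from 102.5 in SkMel-19 to 127.6 in Malme3M. Centring on the median changed the balance of higher and lower calls in these lines, as given below. Signals are listed throughout in the order SkMel-1, SkMel-5 and SkMel-28, then SkMel-19 and last Malme3M, unless the lines are named. The range of a gene is the highest minus the lowest log2(signal + 12) over the 5 DMSO arrays, so that a range of 2 is a difference of 4-fold on that scale.

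All 5 lines shared a set of strongly expressed genes. On each DMSO array the top 5% of named genes comprised 598 genes, with signals from about 3504 to 3603 upwards, and 330 genes (2.76% of those named) were in that class on all 5 arrays. The class itself limits the range of its genes, since their signals lie between that cutoff and the highest signal of any DMSO array, 16653.9. Within this limit their median range was 0.52, 25 had a range of at least 1 and 0 a range of at least 2. The small ranges are therefore in part a result of the choice. No test was made of this class. It held 50 of 57 cytosolic ribosomal protein genes (87.7%), 28 of 75 respiratory chain and ATP synthase genes (37.3%), 8 of 41 proteasome genes and 9 of 64 heat shock and chaperonin genes. Another 641 genes were in the top 5% of 1 to 4 lines.

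The 16 shared genes with the smallest range were TUBA1B, SLC25A5, H2AZ1, RPLP1, GAPDH, RPL37A, RPS10, RPL39, RPS15A, RPS24, RPL41, VIM, RPL27, RPS28, MIF and HSPD1, with ranges from 0.03 to 0.15. Signals of TUBA1B, an alpha tubulin of the microtubules, were 14431, 14650.2, 14689.7, 14667 and 14379. SLC25A5, which exchanges ADP and ATP across the inner mitochondrial membrane, read 11249, 10685, 11459.9, 11323 and 10843. VIM, the intermediate filament of mesenchymal cells, read 11294, 11940.2, 12403, 11399 and 12272, and its lowest and highest lines lay 0.14 apart. MIF, a secreted cytokine that melanocytic and immune cells make, read 11049, 10629.7, 10468, 10735 and 9965. Probe sets of TUBA1B, GAPDH and RPS10 can also bind related transcripts.

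The melanocyte identity of the lines was visible in this shared class. MITF, the master regulator of the lineage, read 4899.5 in SkMel-1, 6016 in SkMel-5, 6268 in SkMel-28, 5493 in SkMel-19 and 5931 in Malme3M, a range of 0.35. SOX10, the neural crest factor that acts upstream of MITF, read 3719.7, 4682, 4250.1, 4942 and 5384, a range of 0.53. MLANA, a melanosome antigen recognised by T cells, read 10736, 13542, 12323, 11823 and 11419. PMEL, which forms the fibrils of the melanosome, read 6123, 13762, 13503, 13699 and 14474, and TYR, the rate-limiting enzyme of melanin synthesis, read 4467, 9783, 7126, 9002 and 11106. SkMel-1 was the lowest of the 5 lines for all 5 of these genes by these probe sets, though not by the second probe sets of SOX10, which had a range of 1.39, and MLANA, and for PMEL the other 4 lines lay close together well above it. The limma F test across the 5 lines, set out with the differences between lines, gave adjusted p-values of 0.0169 for MITF, 0.0160 for SOX10, 0.0722 for MLANA, 0.00686 for PMEL and 1.52e-04 for TYR, so all but MLANA passed the threshold of 0.05, with MITF and SOX10 doing so at small ranges by these probe sets. Other members of the shared class were GPNMB, a melanosomal glycoprotein, and CD63, a membrane protein of melanosomes and endosomes. S100B, a calcium-binding protein used as a melanoma marker, read 1574, 4266, 7324, 629.8 and 5790.3, lowest in SkMel-19, and PAX3, a neural crest factor that activates MITF, read 131, 98.7, 212, 176 and 79.8.

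Beyond this shared set, most genes differed between lines. There is no second DMSO array of any line, so the error was taken from the 250 nM array of the same line, with the mean effect of the drug removed (limma, moderated F test over the 5 lines, 10 arrays, 4 residual degrees of freedom, Benjamini-Hochberg adjustment over 7163 genes). The error thus holds array noise and any difference between lines in the response to the drug. By this test 6459 of 7163 genes (90.2%) differed between lines at an adjusted p under 0.05, and the size of a difference is therefore more telling than its p-value. The median range was 1.15 (quartiles 0.80 and 1.67). A range of at least 2 was found for 1219 genes (17.0%), of at least 4 for 283 (3.95%), of at least 6 for 76 and of at least 8 for 9. The labels do not say that the 2 arrays of a line came from separate cultures, so the p-values measure the spread between these arrays, which may be technical.

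For most of the genes with large ranges the highest line was the same in the drug-treated arrays, and so was the lowest. Each end was compared alone, and the order of all 5 lines was not. Of the 1219 genes with a DMSO range of at least 2, 968 also had a range of at least 2 over the 5 arrays at 250 nM, 1012 had the same highest line and 1016 the same lowest line. Their median range was 2.81 in DMSO and 2.73 at 250 nM. Over all tested genes the median range was 1.15 in DMSO and 1.16 at 250 nM. The share of all tested genes with a range of at least 2 at 250 nM was not computed. Of all 7163 tested genes 5111 kept the highest line and 5018 the lowest. The range that chose the 1219 genes was taken from the DMSO arrays alone, but the drug-treated arrays entered the mean that decided which probe sets and genes were tested, and the 250 nM arrays come from the same lines and were harvested after the same 8 h.

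**Figure D1:**
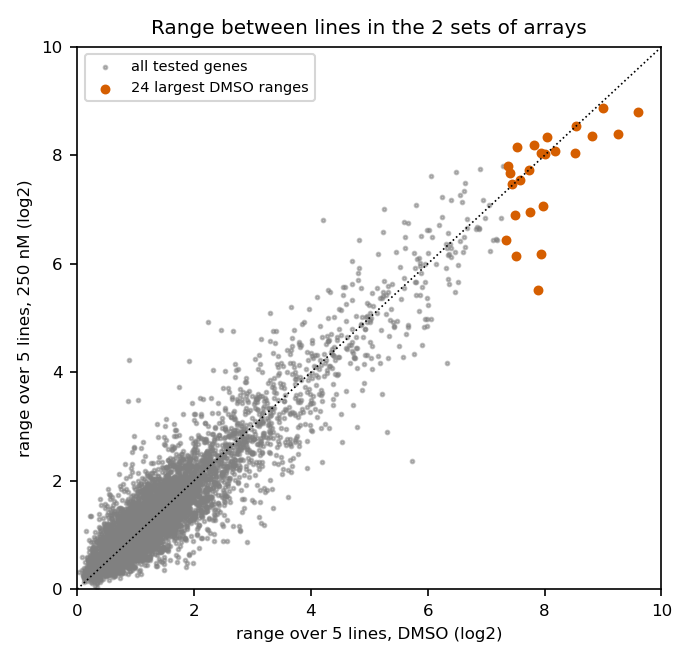
Range over the 5 lines in DMSO (horizontal axis) and at 250 nM PLX4032 (vertical axis), both in log2(signal + 12); each grey point is 1 of 7163 tested genes, orange points are the 24 genes with the largest DMSO range, and the dotted line marks equal ranges. The 24 genes have ranges of 7.34 to 9.60 in DMSO and of 5.52 to 8.87 at 250 nM.

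Most of the genes with large ranges had their largest gap between 1 line and the other 4. A split at the largest gap can set 1 line apart without that line being unusual, and no reference share was computed. Genes high in 1 line only can also fail the filter on mean signal. When the 283 genes with a range of at least 4 were split at the largest gap between neighbouring lines, 124 had 1 line below the other 4 and 53 had 1 line above the other 4, while 63 split with a pair of lines low and 43 with a pair of lines high. SkMel-19 was the single low line for 45 genes, SkMel-1 for 33, SkMel-5 for 20, Malme3M for 15 and SkMel-28 for 11. SkMel-1 was the single high line for 18 genes and Malme3M for 15. In 248 of the 283 genes at least 1 line lay under the filter level, where signals carry little information on the amount of RNA. With every signal under that level raised to it, 1009 genes kept a range of at least 2, 143 of at least 4 and 16 of at least 6.

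The 24 genes with the largest range were CD74, FABP5, CTAG2, PLA1A, MAGEA4, TYRP1, APOC1, MME, S100A4, TMSB4X, THBS2, PRDX2, FXYD3, CDH3, L1CAM, PYCARD, APOD, COX7A2, MFSD1, MCAM, CYTL1, NES, NEFL and STK32B. They were named for their DMSO range, so that range is a description and their limma adjusted p, at most 8.10e-06, is no separate evidence. All 24 had at least 1 line under the filter level, and with signals raised to that level their ranges were 4.62 to 7.15. At 250 nM, 23 of the 24 kept the highest line and 21 the lowest. The 25th gene, TGFBI, had a range of 7.29, close to that of STK32B at 7.34. Another probe set of the same gene above the filter level existed for 6 of the 24. Bulk RNA does not tell fewer cells of a type from less RNA per cell, so a low signal can stand for either.

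**Figure D2:**
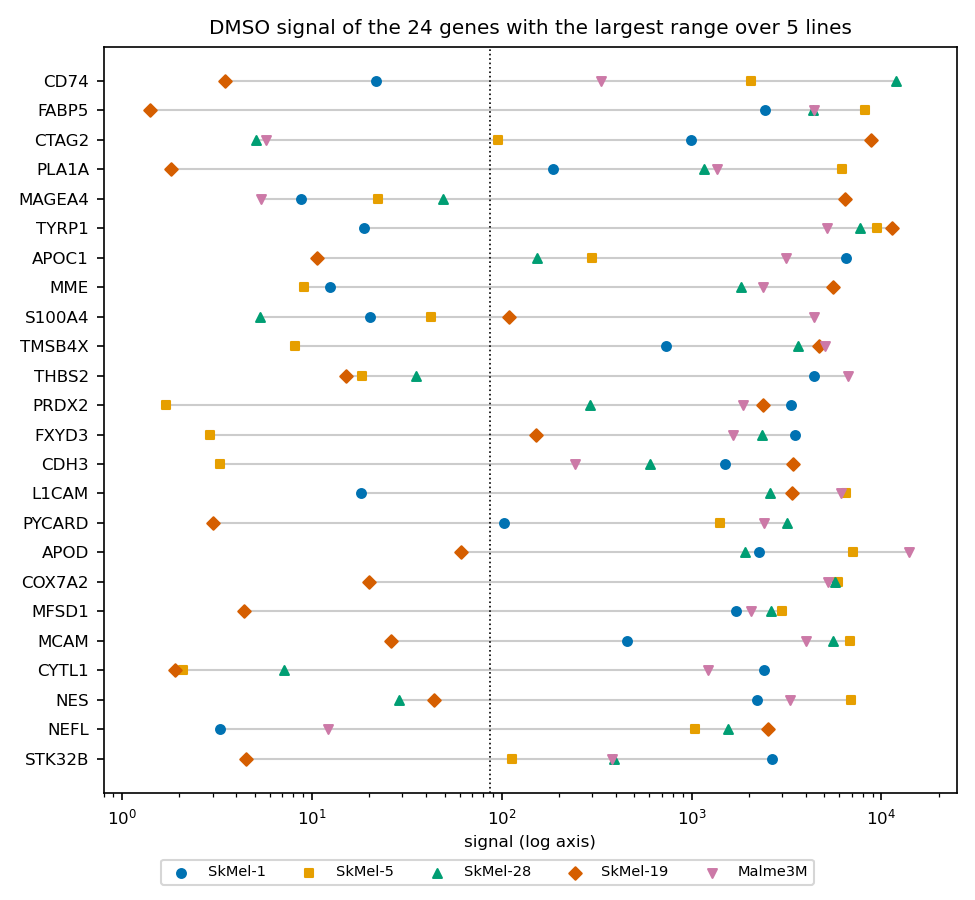
DMSO signal (horizontal log axis) of the 24 genes with the largest range, 1 row a gene, with 1 symbol for each of the 5 lines; the dotted line is the filter level at a signal of 86.6. Each gene has at least 1 line under that level, as for CD74 from 3.5 in SkMel-19 to 11996 in SkMel-28.

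Each line was also set against the mean of the other 4. A call needed a limma adjusted p under 0.05 and a DMSO signal of the line above or below all 4 others. It also needed a difference of at least 1 on the log2 scale between DMSO arrays alone. Median differences of runs below are of this DMSO kind. A difference printed with ± SE is instead the limma estimate over the DMSO array and the drug-treated second array of each line. That estimate therefore rests in part on drug-treated cells, and so does each adjusted p. SkMel-1 had 455 genes higher (6.35% of those tested) and 518 lower (7.23%). SkMel-5 had 363 higher (5.07%) and 417 lower (5.82%), and SkMel-28 had 405 higher (5.65%) and 408 lower (5.70%). SkMel-19 had 243 higher (3.39%) and 402 lower (5.61%), and Malme3M had 444 higher (6.20%) and 287 lower (4.01%). The balance of higher and lower calls depended on the scale of the arrays. On the deposited scale 37.7% of the calls in SkMel-19 and 60.7% of those in Malme3M were higher. With each array centred on its median the shares were 56.6% (405 higher, 311 lower) and 39.8% (312 higher, 471 lower), and with quantile normalization the share in Malme3M was 50.6%. Centring moved the share in SkMel-5 from 46.5% to 58.8% as well. It moved the median difference of all tested genes between SkMel-19 and the other lines from 0.03 to 0.17, and that of Malme3M from 0.05 to -0.11, on the log2 scale.

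**Figure D3:**
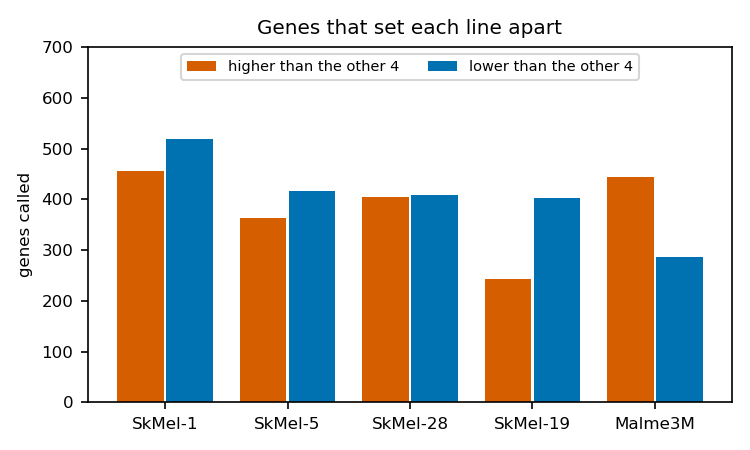
Number of genes (vertical axis) called higher (orange) or lower (blue) in each of the 5 lines than in the other 4, on the deposited scale. SkMel-1 has the most calls in both directions, 455 and 518, while SkMel-19 has 243 higher and 402 lower.

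The gene lists below group genes by role, and their members were chosen with earlier results of these data known. A count above the share of all tested genes is therefore a description and no separate evidence. For each list the number of tested members, the number with a range of at least 2 and the median range are given, to be read against 17.0% of all tested genes and a median range of 1.15. A gene that is high in some lines only could pass the filter through those lines alone. It could also fail the filter because its mean was low, as HLA-DRA did. The filter thus bears on which members were tested, and the counts describe the tested members only.

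**Figure D4:**
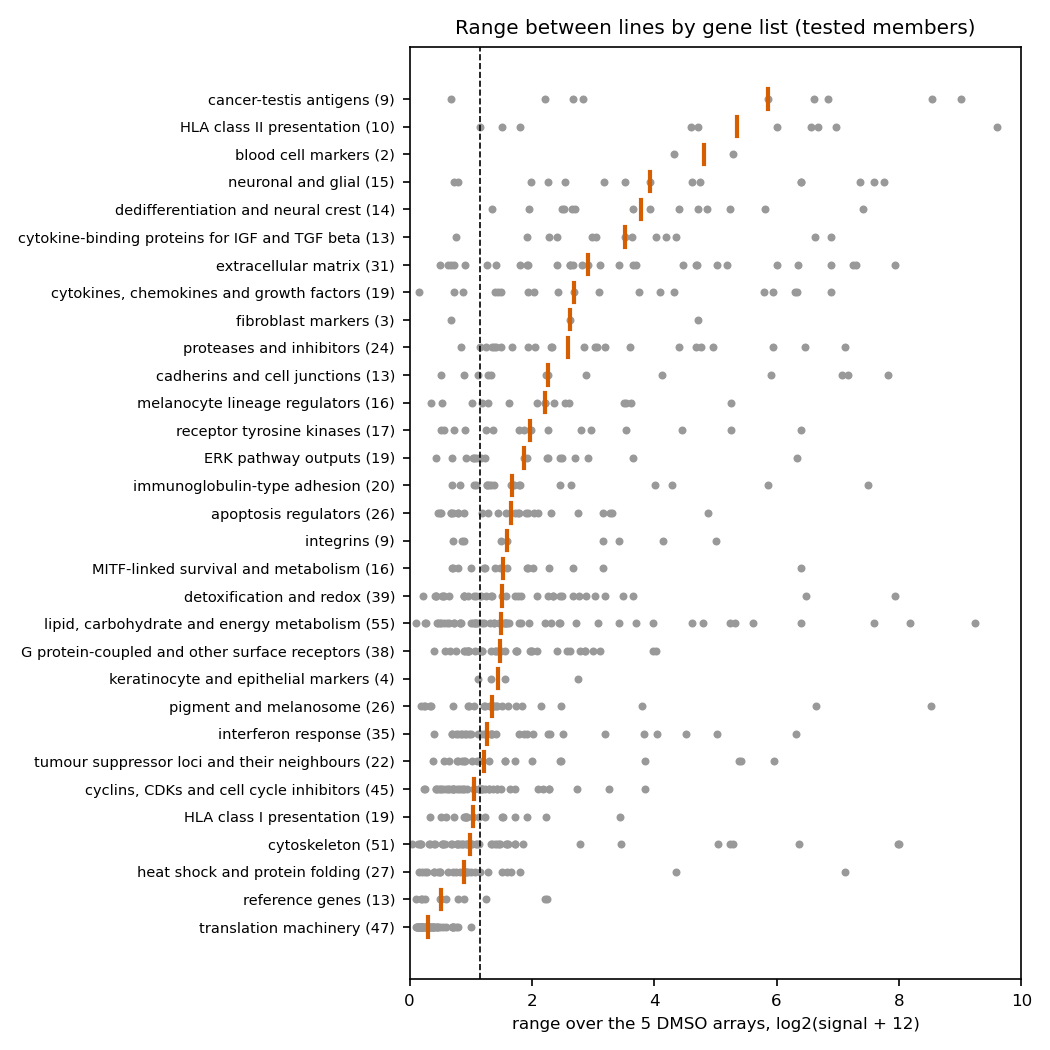
Range over the 5 DMSO arrays in log2(signal + 12) (horizontal axis) of every tested member of each gene list (grey points, number of tested members in parentheses), with the list median (orange bar); the dashed line is the median of all 7163 tested genes, 1.15. Medians run from 0.30 for the translation machinery to 5.86 for cancer-testis antigens.

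Several regulators of the melanocyte lineage and some pigment genes had large ranges between lines. Of 16 tested regulators, MITF and SOX10 included, 15 passed the F test, near the 90.2% of all tested genes, and 10 had a range of at least 2, with a median of 2.21, and of 26 tested pigment and melanosome genes 5 had such a range, with a median of 1.34; the difference between the lists was not tested. KIT, the receptor for stem cell factor on melanocytes, read 616, 62.9, 15.4, 147 and 1034. It was highest in Malme3M and SkMel-1, and SkMel-28 and SkMel-5 lay under the filter level (range 5.25, limma adjusted p = 2.44e-06). SNAI2, a transcription factor of migrating neural crest cells, read 494, 3489, 6186, 2382 and 2365, low in SkMel-1 and highest in SkMel-28. MC1R, the receptor for melanocyte-stimulating hormone, read 3599.8, 305, 1216, 935 and 2076, with SkMel-1 highest and SkMel-5 lowest. ERBB3, a receptor for neuregulin that signals with other receptors of its family, read 482, 1109, 1881, 1713 and 5709, with Malme3M clearly above the rest and SkMel-1 lowest (range 3.53).

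Among the pigment genes, 6 of 26 tested members were called lower in SkMel-1 (TYRP1, OCA2, TRPM1, PMEL, HPS5 and TYR), where 7.23% of all tested genes were, and 3 (MYO5A, SLC45A2 and MREG) were called higher there, against 6.35%. TYRP1, an enzyme and stabiliser of tyrosinase in brown and black pigment, read 18.7 in SkMel-1, 9423 in SkMel-5, 7750.3 in SkMel-28, 11341 in SkMel-19 and 5149.8 in Malme3M. It was far under the filter level in SkMel-1 and strong in each of the other 4 lines, and the fitted difference of SkMel-1 from the others was -8.01 ± 0.14 (SE, limma adjusted p = 2.87e-09) on the log2 scale. OCA2, which controls the pH of melanosomes, read 38.7, 5036, 1463, 2594 and 2818, and SkMel-1 differed from the other lines by -6.43 ± 0.27 (SE, limma adjusted p = 2.12e-07). TRPM1, a cation channel whose gene MITF activates, read 15.2, 162, 76.2, 366 and 52.4, above the filter level in SkMel-5 and SkMel-19 only. CAPN3, a calcium-dependent protease, read 4673, 4175, 883, 4949.5 and 2586, with SkMel-28 lowest, by a probe set that can bind related transcripts. SLC45A2, a melanosomal transporter, went the other way from TYRP1, with 4749.5, 3833, 1868, 1898 and 1764 and its highest signal in SkMel-1.

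The promoters of TYRP1, OCA2 and TYR are shown because these pigment genes were all lowest in SkMel-1, where MITF had a range of 0.35. Each of them carries the letters marked below. MLANA, also lowest there by the probe set used, had no match in its window. Each run holds 160 bases before the RefSeq start site (GRCh38.p14), with the E box letters CATGTG, or CACATG where it lies on the other strand, in capitals.
TYRP1 (chr9:12693225-12693384, plus strand): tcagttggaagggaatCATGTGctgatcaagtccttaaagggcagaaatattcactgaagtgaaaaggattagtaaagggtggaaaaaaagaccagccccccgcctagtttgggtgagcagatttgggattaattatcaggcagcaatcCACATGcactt
OCA2 (chr15:28099316-28099475, minus strand): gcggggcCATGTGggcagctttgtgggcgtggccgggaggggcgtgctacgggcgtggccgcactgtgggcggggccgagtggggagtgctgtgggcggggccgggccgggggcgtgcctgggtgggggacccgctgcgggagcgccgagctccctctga
TYR (chr11:89177715-89177874, plus strand): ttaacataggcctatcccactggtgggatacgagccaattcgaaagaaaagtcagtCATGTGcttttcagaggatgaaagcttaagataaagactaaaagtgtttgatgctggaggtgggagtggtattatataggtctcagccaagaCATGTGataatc
TYRP1 carries the letters 144 and 11 bases before the start, OCA2 at 153 bases and TYR at 104 and 12 bases. Searched on both strands of the 300 bases from 250 before to 50 after each start, CATGTG was found in 7 of the 10 RefSeq windows of 7 pigment genes, of which TRPM1 and CAPN3 have more than 1, and in 11.1% of 35116 windows of all genes. The 7 genes were TYRP1, OCA2, TYR, MLANA, TRPM1, GPR143 and CAPN3. PMEL and HPS5, also called lower in SkMel-1, were not among them, and CAPN3 was lowest in SkMel-28. The count of windows describes the 7 genes only. MITF is known to bind this E box, and a match is a run of letters, not evidence of binding in these lines.

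Genes of antigen presentation by HLA class II were highest in SkMel-28 for most tested members. Class II molecules carry peptides to CD4 T cells, are made all the time by antigen-presenting cells, and are switched on in other cells by interferon gamma through CIITA. Of 10 tested members 7 had a range of at least 2, with a median range of 5.36. In SkMel-28 8 of 10 were called higher, where 5.65% of all tested genes were, and in SkMel-19 6 were called lower, against 5.61%.

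CD74, the invariant chain that guides class II molecules to the endosome, read 21.8 in SkMel-1, 2065 in SkMel-5, 11996 in SkMel-28, 3.5 in SkMel-19 and 334 in Malme3M. It had the widest range of all tested genes, 9.60, and 6.93 with low signals raised to the filter level. In the limma fit SkMel-28 lay above the other 4 lines by 6.40 ± 0.19 (SE, limma adjusted p = 5.61e-08). On the DMSO arrays alone the difference was 6.43. HLA-DRB1, the beta chain of HLA-DR, read 46.7, 525, 5488, 46.8 and 41.9, above the filter level in SkMel-28 and SkMel-5 only, and SkMel-28 differed by 5.76 ± 0.17 (SE, limma adjusted p = 5.38e-08). HLA-DPB1, the beta chain of HLA-DP, read 762, 168, 4372, 22.8 and 36.1, with SkMel-28 highest, SkMel-1 next and SkMel-19 and Malme3M under the filter level, and SkMel-28 differed by 5.07 ± 0.16 (SE, limma adjusted p = 8.60e-08). HLA-DPA1, its partner chain, read 284, 357, 7534, 68.2 and 341, and its other 2 probe sets had the same highest and lowest lines. HLA-DRA, the alpha chain of HLA-DR, did not reach the filter on mean signal and was not tested, but read 13.1, 233, 8739, 6.8 and 2.5, again highest in SkMel-28. The loaders HLA-DMA, with 135, 317, 2609, 28.7 and 186, and HLA-DMB, with 183, 102, 1165, 36.6 and 101, followed with SkMel-28 highest and SkMel-19 lowest. CIITA itself read 56.9, 43.7, 53.6, 40.3 and 23.7, under the filter level in every line, and was not tested. Probe sets of the polymorphic HLA genes can bind alleles unequally and, as for HLA-DRB1 and HLA-DQB1, related genes, so part of a difference could lie in the probes; that was not tested.

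Promoter stretches of HLA-DRB1, HLA-DQB1 and HLA-DMA are shown because these genes were high in SkMel-28 together and carry the letters marked below. CD74, HLA-DPA1, HLA-DPB1 and HLA-DMB were also called higher there but had no match in their windows. The letters CTGATTGG, the core of the Y box of class II promoters that the factor NF-Y recognises, are in capitals, and each run holds 160 bases before the RefSeq start (GRCh38.p14).
HLA-DRB1 (chr6:32589849-32590008, minus strand): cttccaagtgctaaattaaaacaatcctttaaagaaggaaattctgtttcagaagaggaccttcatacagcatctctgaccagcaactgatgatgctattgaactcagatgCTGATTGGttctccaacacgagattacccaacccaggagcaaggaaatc
HLA-DQB1 (chr6:32666658-32666817, minus strand): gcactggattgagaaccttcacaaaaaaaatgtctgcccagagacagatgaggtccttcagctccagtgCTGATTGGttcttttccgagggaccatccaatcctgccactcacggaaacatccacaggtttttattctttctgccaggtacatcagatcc
HLA-DMA (chr6:32953098-32953257, minus strand): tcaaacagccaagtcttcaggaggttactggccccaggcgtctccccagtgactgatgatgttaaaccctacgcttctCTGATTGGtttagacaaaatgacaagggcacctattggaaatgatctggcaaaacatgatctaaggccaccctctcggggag
The letters lie 49, 91 and 82 bases before the start. On both strands of the 300-base windows they were found in 3 of the 8 windows of 7 class II genes, and in 3.97% of 35116 windows of all genes; no match for the other 4 genes says only that these letters are not in those windows.

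HLA class I, which shows peptides to CD8 T cells, had smaller ranges than class II, a difference between lists that was not tested. Of 19 tested members 2 had a range of at least 2, with a median of 1.03, and 5 were in the top 5% of every line, among them B2M with 10559, 10508, 8676, 7372 and 9753. TAP1, the peptide transporter, read 306, 400.1, 308, 41.5 and 566, and HLA-B read 6618, 5502, 5939.8, 2298 and 5648. SkMel-19 was the lowest line for both, and TAP1 there lay under the filter level (ranges 3.43 and 1.52). HLA-G read 4272, 3055, 3853, 1472 and 6921 by a probe set that can bind other class I genes. TAP2, the partner of TAP1, read 386, 505, 124, 227 and 191, and TAPBP, which holds class I molecules at the transporter, read 1602, 1009, 796, 1366 and 2662; neither was lowest in SkMel-19.

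Genes of the interferon response differed between lines in several patterns. Of 35 tested members 10 had a range of at least 2 (median 1.26). SkMel-5 had 7 called lower (background 5.82%), among them BST2, a tether of budding viruses, with 33.1, 7.4, 1538, 1284 and 744, and IFI44, with 426, 14.7, 384, 23.7 and 128. BST2 was above the filter level in SkMel-28, SkMel-19 and Malme3M only. MX2, an antiviral GTPase, read 46.5, 15.4, 57.0, 884 and 64.7, high in SkMel-19 alone. ISG20, an exonuclease, read 73.2, 1946, 378, 164 and 1698, high in SkMel-5 and Malme3M.

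Cancer-testis antigens, proteins normally made in germ cells and re-expressed in tumours, had the largest median range of the lists. Of 32 members with a probe set 16 lay under the filter level in all 5 lines and 9 were tested, of which 8 had a range of at least 2 (median 5.86). SkMel-19 had 5 of the 9 called higher (3.39% of all tested genes) and Malme3M 6 called lower (4.01%). MAGEA4 read 8.8 in SkMel-1, 22.4 in SkMel-5, 49.0 in SkMel-28, 6458 in SkMel-19 and 5.4 in Malme3M, so it was above the filter level in SkMel-19 alone, and that line differed from the others by 7.75 ± 0.18 (SE, limma adjusted p = 6.82e-09). CTAG2 read 989, 95.9, 5.1, 8802 and 5.7, high in SkMel-19 and next in SkMel-1, by a probe set that can also bind its near-identical relatives. MAGEB2 read 27.7, 776, 50.1, 2189.6 and 10.6, present in SkMel-19 and SkMel-5. MAGEA12 read 3046, 5653, 4270.2, 4580.3 and 37.3, with Malme3M far below the other 4 lines at a difference of -6.28 ± 0.10 (SE, limma adjusted p = 1.11e-09). MAGEA6 was also lowest in Malme3M, with 3783, 9039.8, 6355, 6499 and 1408. PRAME, a repressor of retinoic acid signalling, was present in every line with 1239, 4141, 4020.3, 4452 and 5787, and here SkMel-1 was lowest and Malme3M highest. MAGE genes are alike in sequence, and their probe sets may share signal.

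**Figure D5:**
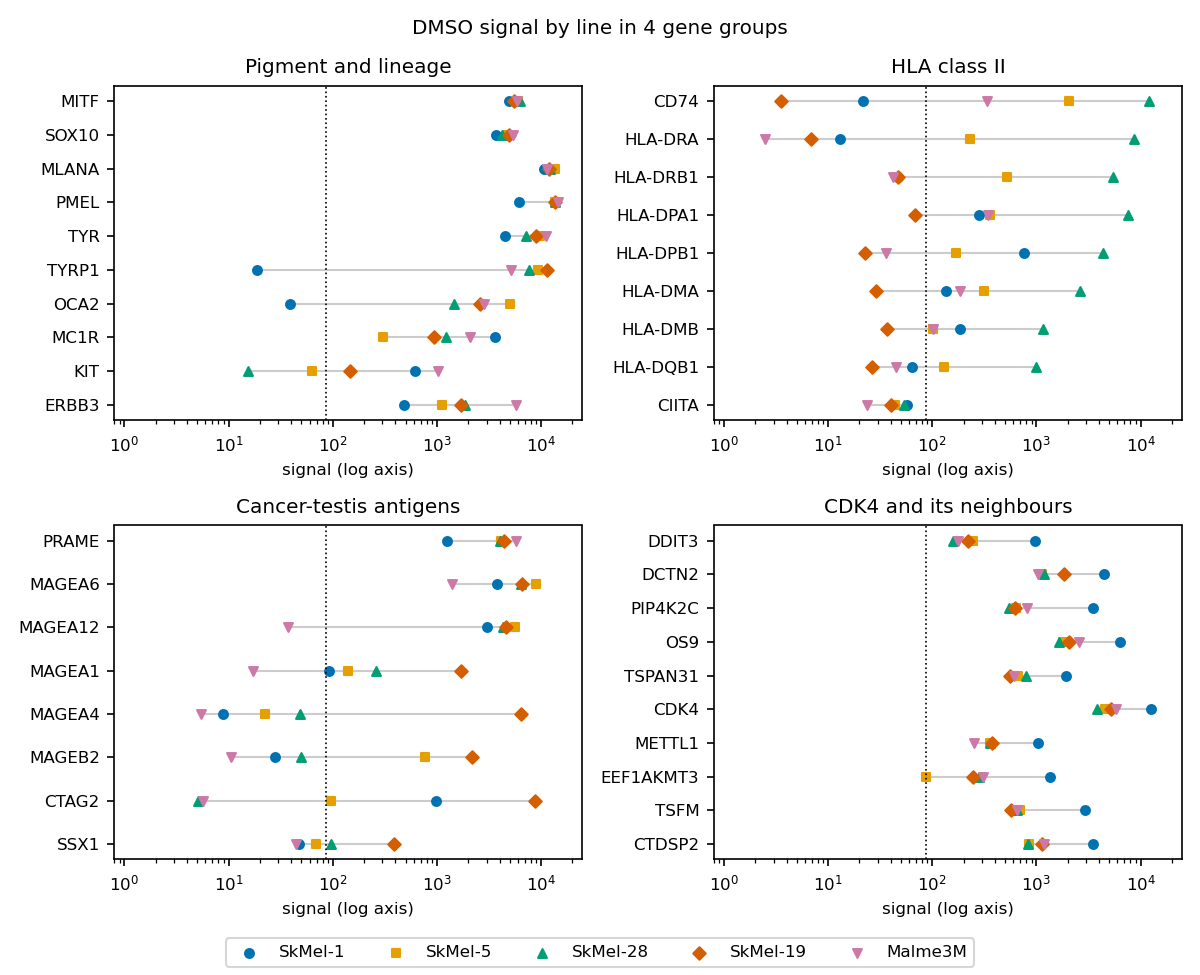
DMSO signal (horizontal log axes) by line, 1 symbol a line, for pigment and lineage genes, HLA class II genes, cancer-testis antigens and CDK4 with its neighbours; the dotted line is the filter level at 86.6. MITF, SOX10 and MLANA symbols overlap while TYRP1 spans 18.7 to 11341, the class II genes above the filter level are highest in SkMel-28, and the 10 genes around CDK4 are highest in SkMel-1.

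Cell adhesion genes differed widely. Cadherins join like cells, and the switch from E-cadherin to N-cadherin is known from melanoma progression. Of 25 cadherin and junction genes with a probe set 13 were tested, and 8 had a range of at least 2 (median 2.26). CDH1, E-cadherin, read 396 in SkMel-1, 573 in SkMel-5, 19.7 in SkMel-28, 98.6 in SkMel-19 and 4537 in Malme3M. CDH2, N-cadherin, read 414, 4.3, 967, 183 and 33.6. Malme3M had the highest E-cadherin and an N-cadherin under the filter level, and SkMel-28 the reverse. By these probe sets SkMel-1 and SkMel-19 had both above it, SkMel-19 by a small margin for CDH1, and SkMel-5 had E-cadherin alone. The second probe sets, both too low on mean signal for the filter, differed for these 3 lines. CDH1 there read 67.7, 76.6, 2.3, 38.8 and 987.8, above the level in Malme3M alone. CDH2 there read 150.8, 16.1, 269.5, 60.2 and 26.1, above it in SkMel-1 and SkMel-28. CDH3, P-cadherin, read 1502, 3.3, 606, 3434 and 244, high in SkMel-19 and SkMel-1 and far under the filter level in SkMel-5. PCDH7, a protocadherin, read 3912, 17.2, 712, 23.2 and 785, high in SkMel-1 and under the filter level in SkMel-5 and SkMel-19.

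Among 20 tested adhesion molecules of the immunoglobulin type and their partners 6 had a range of at least 2 (median 1.67). MCAM, a melanoma adhesion molecule, read 454, 6832, 5546, 26.0 and 4013, high in SkMel-5, SkMel-28 and Malme3M and under the filter level in SkMel-19 (range 7.49). CEACAM1, which binds its own kind between cells and dampens immune cells, read 40.3, 2063, 3021, 489 and 498, and 4 other probe sets placed SkMel-28 highest and SkMel-1 lowest as well. ALCAM, a ligand of CD6, read 1064, 484, 122, 43.0 and 382, with SkMel-1 highest and SkMel-19 lowest. NRCAM, a neuronal adhesion molecule, read 122, 344, 1128, 58.9 and 536, also lowest in SkMel-19.

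Integrins bind cells to matrix, and 4 of 9 tested had a range of at least 2 (median 1.58). ITGA7, a laminin receptor subunit, read 55.8, 1456, 76.6, 75.6 and 2169, high in SkMel-5 and Malme3M only. ITGB3, the beta subunit of the vitronectin receptor tied to vertical growth of melanoma, read 2803, 419, 1828, 147 and 1681, highest in SkMel-1 and lowest in SkMel-19. ITGA10 read 541, 49.7, 80.3, 60.4 and 215 and ITGA3, another laminin receptor subunit, read 46.2, 283, 164, 193 and 615; SkMel-1 was the highest line for the first and the lowest for the second.

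Of 31 tested matrix genes 21 had a range of at least 2 (median 2.92). Malme3M had 14 called higher (6.20% of all tested genes) and SkMel-1 12 called lower (7.23%). THBS2, a thrombospondin, read 4422, 18.4, 35.3, 15.2 and 6656, high in Malme3M and SkMel-1 and under the filter level in the other 3 lines. NID1, a basement membrane linker, read 554, 140.0, 2.8, 6.8 and 2248, highest in Malme3M. TGFBI, a secreted protein induced by TGF beta, read 5282, 6687, 30.7, 644 and 2289.9, under the filter level in SkMel-28 alone, which differed by -6.20 ± 0.19 (SE, limma adjusted p = 6.06e-08). COL11A1, a fibrillar collagen, read 95.6, 3.6, 1667, 11.5 and 1841, present in Malme3M and SkMel-28, with a little in SkMel-1. CSPG4, the melanoma proteoglycan, read 356, 1092, 1302, 64.8 and 2481, under the filter level in SkMel-19.

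Of 24 tested proteases and inhibitors 15 had a range of at least 2 (median 2.59), and 9 were called lower in SkMel-1, where 7.23% of all tested genes were. MMP8, a collagenase, read 9.6, 913, 1904, 557 and 505, under the filter level in SkMel-1 only. CTSZ, a lysosomal protease, read 103, 7038, 828, 1639 and 568, and CST1, a cystatin that inhibits such proteases, read 25.4, 1147, 766, 118 and 150.3; SkMel-5 was highest and SkMel-1 lowest for both. SERPINH1, the collagen chaperone, read 201, 3.5, 2139, 944 and 1242, near 0 in SkMel-5.

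Receptor tyrosine kinases stand at the head of the pathway in which BRAF acts. Of 42 with a probe set 15 lay under the filter level in all 5 lines, 17 were tested and 7 had a range of at least 2 (median 1.97). MET, the receptor for hepatocyte growth factor, read 729.6 in SkMel-1, 926 in SkMel-5, 12.5 in SkMel-28, 1716 in SkMel-19 and 2054 in Malme3M. SkMel-28 was the only line under the filter level, it was lowest in all 4 probe sets of MET, and it differed from the other lines by -5.34 ± 0.21 (SE, limma adjusted p = 2.70e-07). EPHA3, an ephrin receptor, read 46.6, 479, 274, 10.5 and 72.7, above the filter level in SkMel-5 and SkMel-28. A further 4 receptors known from drug-resistant states, AXL, NGFR, EGFR and PDGFRB, did not reach the filter on mean signal and were not tested. AXL read 12.2, 26.3, 26.1, 4.3 and 352, above the filter level in Malme3M alone. NGFR read 4.8, 100.3, 50.7, 60.5 and 35.6 and EGFR read 40.2, 29.0, 121, 50.5 and 42.6, each above the filter level in 1 line by a small margin. PDGFRB read 10.3, 1.8, 15.2, 6.5 and 28.2, under the filter level in every line.

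Other surface receptors numbered 38 tested, of which 12 had a range of at least 2 (median 1.48). IL11RA, the receptor for interleukin 11, read 21.8, 537, 105, 32.0 and 271, highest in SkMel-5. ADORA2B, an adenosine receptor, read 570.0, 844, 796, 59.0 and 1106, under the filter level in SkMel-19 alone. FZD7, a receptor for Wnt proteins, read 2290.1, 253, 711, 620.1 and 989, and BMPR2, a receptor for bone morphogenetic proteins, read 1069.5, 139, 124, 387 and 294, both highest in SkMel-1. The ranges of FZD7 and BMPR2 were smaller at 250 nM, 1.33 against 3.12 and 1.64 against 2.99 in DMSO.

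Secreted ligands showed several genes high in SkMel-1. Of 19 tested cytokines, chemokines and growth factors 12 had a range of at least 2 (median 2.69), and 8 were called higher in SkMel-1, against 6.35% of all tested genes. DKK3, a secreted glycoprotein of the Dickkopf family, read 3067, 49.7, 14.1, 298 and 148, and BMP7, a bone morphogenetic protein, read 2752, 22.9, 1122, 207 and 103, with SkMel-28 second. LIF, a cytokine of the interleukin 6 family, read 2527, 166, 212, 19.6 and 906, highest in SkMel-1 and under the filter level in SkMel-19. MDK, a heparin-binding growth factor, read 1381, 102, 10.6, 68.5 and 727, high in SkMel-1 and Malme3M. CXCL1, a chemokine for neutrophils first found in melanoma, read 64, 4199, 297, 97.2 and 818, highest in SkMel-5, which differed by 4.51 ± 0.24 (SE, limma adjusted p = 1.20e-06).

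Proteins that bind such ligands outside the cell were tested for 13 genes, of which 11 had a range of at least 2 (median 3.52). SFRP1, which binds Wnt proteins, read 3682, 404, 5718, 36.5 and 1478, under the filter level in SkMel-19 alone. IGFBP4 read 82.8, 1248, 19.8, 3.5 and 1524 and IGFBP3 read 335, 227, 687, 202 and 3892; both bind insulin-like growth factors, and both were highest in Malme3M and lowest in SkMel-19. CCN3, a matricellular protein, read 204, 3356, 246, 4413 and 399, high in SkMel-19 and SkMel-5.

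Most genes that report the output of the ERK pathway were present in every line. Of 23 with a probe set 19 were above the filter level on all 5 DMSO arrays; of 19 tested 13 passed the F test, against 90.2% of all tested genes, and 8 had a range of at least 2 (median 1.87). DUSP6, the phosphatase that feeds back on ERK, read 2362, 2669.5, 1437, 1067 and 5927, highest in Malme3M, but its limma adjusted p was 0.0736 and its range at 250 nM 4.78 against 2.46 in DMSO. CCND1, cyclin D1, read 4368, 4590.2, 3478, 2091 and 3332, with a range of 1.13. A second probe set of CCND1 above the filter level read 4469.4, 1763, 1094, 717.1 and 1102. Its range was 2.62, with SkMel-1 highest. DUSP5, another ERK phosphatase, read 2419, 189, 181, 248 and 359, and SPRY4, a feedback inhibitor, read 3957, 515, 1621, 604 and 565; SkMel-1 was highest for both. KCNN4, a potassium channel, read 1153, 338, 467, 264 and 1776, highest in Malme3M. The error of this test includes any difference between lines in how these genes respond to the drug.

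Genes of the neural crest and of dedifferentiated melanoma had large ranges among those that could be tested. Of 31 with a probe set 14 were tested, 12 had a range of at least 2 and the median was 3.79. NES, nestin, an intermediate filament of neural progenitors, read 2211 in SkMel-1, 6907 in SkMel-5, 28.7 in SkMel-28, 44.1 in SkMel-19 and 3312 in Malme3M. It was high in SkMel-5, Malme3M and SkMel-1 and under the filter level in SkMel-28 and SkMel-19, with differences of 4.32 ± 0.12 (SE, limma adjusted p = 3.94e-08) for SkMel-5 and -5.10 ± 0.12 (SE, limma adjusted p = 2.27e-08) for SkMel-28. S100A6, a calcium-binding protein, read 1124, 6999.9, 1773, 298 and 11687, highest in Malme3M and lowest in SkMel-19. RAMP1, a partner of the calcitonin receptor family, read 210.1, 58.3, 91.7, 44.8 and 3183, high in Malme3M, which differed by 4.89 ± 0.24 (SE, limma adjusted p = 7.60e-07). CCN1, a matricellular protein, read 52.1, 1851, 113, 147 and 117, high in SkMel-5 alone.

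Of 15 tested neuronal and glial genes 12 had a range of at least 2 (median 3.93), and 7 were called lower in SkMel-1, against 7.23% of all tested genes. L1CAM, a neural adhesion molecule, read 18.2, 6524, 2581, 3369 and 6107, far under the filter level in SkMel-1 and strong in the others, a difference of -6.79 ± 0.15 (SE, limma adjusted p = 1.38e-08). NEFL, the light neurofilament, read 3.3, 1039, 1552, 2518 and 12.2, present in SkMel-5, SkMel-28 and SkMel-19 only. FABP7, a fatty acid carrier of glia, read 13.3, 170.0, 2114, 475 and 1091, highest in SkMel-28. APOD, a lipid carrier of glia and melanocytes, read 2271, 7110.3, 1920.3, 61.0 and 13999, under the filter level in SkMel-19 alone.

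Targets of MITF in survival and metabolism varied moderately, with 5 of 16 tested at a range of at least 2 (median 1.53). BCL2A1, an inhibitor of apoptosis, read 3372, 799, 3598, 389 and 3283, lower in SkMel-19 and SkMel-5 than in the other 3 lines. PPARGC1A, the coactivator of mitochondrial genes, read 378, 84.2, 104, 345 and 91.2, higher in SkMel-1 and SkMel-19. CDK2, a cell cycle kinase next to PMEL in the genome, read 1699.6, 7638, 3981, 7133 and 8321, and like PMEL was lowest in SkMel-1. ST3GAL6, a sialyltransferase, read 2577, 1309, 393, 1144 and 1189.8.

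Metabolic genes supplied several of the widest ranges. Of 55 tested genes of lipid, carbohydrate and energy metabolism 18 had a range of at least 2 (median 1.5). FABP5, a fatty acid carrier, read 2432 in SkMel-1, 8151 in SkMel-5, 4378 in SkMel-28, 1.4 in SkMel-19 and 4422 in Malme3M. SkMel-19 lay near 0 while each of the other 4 lines was strong, a difference of -7.90 ± 0.18 (SE, limma adjusted p = 5.85e-09). APOC1, an apolipoprotein, read 6512, 299.6, 154, 10.6 and 3144, highest in SkMel-1 and lowest in SkMel-19, and a second probe set had the same order at the ends. Outside this list, COX7A2, a subunit of cytochrome c oxidase, read 5862, 5926, 5695, 20.0 and 5212; SkMel-19 alone was low, and the other 4 lines lay within a narrow band. It differed by -7.74 ± 0.12 (SE, limma adjusted p = 4.35e-10). PLA1A, a phospholipase, read 186, 6229.6, 1163, 1.8 and 1360.0, highest in SkMel-5 and near 0 in SkMel-19, and MFSD1, a lysosomal transporter, read 1714, 2990.3, 2635, 4.4 and 2060.1, near 0 in SkMel-19 alone.

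Of 39 tested detoxification and redox genes 15 had a range of at least 2 (median 1.52), 8 were called higher in SkMel-1 (background 6.35%) and 10 lower in SkMel-5 (background 5.82%). In both counts 6 are neighbouring metallothioneins whose probe sets can bind several members of the family, so they are not 6 separate measurements. PRDX2, a peroxidase, read 3342, 1.7, 293, 2390.3 and 1874, near 0 in SkMel-5 with a difference of -6.80 ± 0.10 (SE, limma adjusted p = 7.15e-10), and its other 3 probe sets were lowest there too. ALDH1A3, which makes retinoic acid, read 10983, 111, 5258, 180.0 and 4331, high in SkMel-1, SkMel-28 and Malme3M. MT1E, a metallothionein that binds zinc and cadmium, read 1680.0, 122, 594, 685 and 439, highest in SkMel-1 and lowest in SkMel-5, by a probe set that can bind related metallothioneins. GSTT2, a glutathione transferase, read 146, 38.1, 40.5, 548 and 232, under the filter level in SkMel-5 and SkMel-28.

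Of 51 tested cytoskeletal genes 8 had a range of at least 2 (median 0.99), and 19 were in the top 5% of every line. TMSB4X, which holds actin monomers, read 732, 8.1, 3638, 4694 and 5071, near the floor in SkMel-5, which differed by -6.64 ± 0.19 (SE, limma adjusted p = 3.94e-08). S100A4, a calcium-binding protein tied to motility, read 20.2, 42.5, 5.3, 109 and 4421, high in Malme3M, a difference of 6.73 ± 0.24 (SE, limma adjusted p = 1.21e-07). ANXA1, a phospholipid-binding annexin, read 45.7, 59.7, 4758, 1065 and 1241, under the filter level in SkMel-1 and SkMel-5. Heat shock and folding genes varied little, with 2 of 27 tested at a range of at least 2 (median 0.89); HSPA2 read 348, 1106, 2387, 105 and 623, CRYAB read 69, 166, 77.5, 141 and 272 and HSPB1, a small heat shock protein, read 3373, 8184, 3164, 9958 and 6968.

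Apoptosis regulators had 8 of 26 tested members at a range of at least 2 (median 1.66). FADD, the adaptor of death receptors, read 797, 3882, 391, 714 and 532, highest in SkMel-5. CASP1, the protease of inflammasomes, read 184, 302, 1554, 41.0 and 597, lowest in SkMel-19, by a probe set that can bind related transcripts, and PYCARD, the adaptor that recruits it, read 103, 1404, 3170.4, 3.0 and 2399, near 0 in SkMel-19. Both were highest in SkMel-28. PMAIP1, a pro-apoptotic protein under p53, read 2973, 291, 369.7, 671 and 354, highest in SkMel-1.

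Cell cycle genes had 7 of 45 tested members at a range of at least 2 (median 1.05). CDKN1A, the p21 inhibitor, read 4323, 2174, 288, 1608 and 1582, highest in SkMel-1 and lowest in SkMel-28. CDKN1C, the p57 inhibitor, read 155, 1574, 232, 172 and 899.6, highest in SkMel-5. CDC20, an activator of the anaphase-promoting complex, read 517, 2037, 2305, 3506 and 1199.8, lowest in SkMel-1.

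Tumour suppressor genes and their neighbours had 6 of 22 tested members at a range of at least 2 (median 1.21). CDKN2A, which encodes the p16 and p14ARF inhibitors, read 2374 in SkMel-1, 45.3 in SkMel-5, 1882 in SkMel-28, 243 in SkMel-19 and 61.9 in Malme3M. SkMel-5 and Malme3M lay under the filter level, and a second probe set ordered the lines alike at the ends. MTAP, a purine salvage enzyme whose gene lies beside CDKN2A, read 190.1, 2.2, 236, 259 and 6.0 and was not tested; its lowest signals were in the same pair of lines. KLHL9, an adaptor of a ubiquitin ligase whose gene lies on the same chromosome arm, read 746, 908, 508, 741 and 2.8, near 0 in Malme3M with a difference of -5.63 ± 0.12 (SE, limma adjusted p = 7.04e-09), but not in SkMel-5. CAAP1 and PLAA, the next tested genes after CDKN2A on the other side, read 380.0, 7.6, 286, 374 and 711 for CAAP1 and 404, 20.0, 329, 349 and 498 for PLAA, low in SkMel-5 and not in Malme3M. APC, a brake on Wnt signalling, read 369, 473, 564, 1.4 and 149, near 0 in SkMel-19, and its other 4 probe sets were lowest there too. DNA copy number was not measured in these data, so gene loss and low expression cannot be told apart.

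Some of the genes that set a line apart lay next to each other in the genome. The 7163 tested genes were put in the order of the RefSeq gene table, and runs of neighbours called in the same direction for the same line were counted, with no test. There were 407 runs of at least 2 genes and 104 of at least 3. Between 18.5% (SkMel-19, higher) and 34.4% (SkMel-1, lower) of calls lay in runs. No share to be had from the call rates alone was computed, so these shares do not show how far neighbours cluster. Some runs hold related genes whose probe sets can share signal, such as metallothioneins. The longest was of 11 genes higher in SkMel-1, from NOP14 through HTT, MSX1, CYTL1 and STK32B to WFS1, with a median difference of 2.07. A run of 10 genes higher in SkMel-1, with a median difference of 1.83, held DDIT3, DCTN2, PIP4K2C, OS9, TSPAN31, CDK4, METTL1, EEF1AKMT3, TSFM and CTDSP2. These runs were singled out after their values were seen.

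In the latter run CDK4, the kinase that phosphorylates RB at the start of the cell cycle, read 12653 in SkMel-1, 4557 in SkMel-5, 3837 in SkMel-28, 5224 in SkMel-19 and 5805 in Malme3M. SkMel-1 differed from the other lines by 1.39 ± 0.07 (SE, limma adjusted p = 6.67e-07). TSFM, a mitochondrial elongation factor, read 2901, 693, 646, 567 and 650.3, and PIP4K2C, a lipid kinase, read 3499, 641, 543, 621 and 812. SkMel-1 was above each of the other 4 lines for all 10 genes, and those 4 lay close together for most of them. In SkMel-5 a run of 8 genes was higher, FADD, PPFIA1, CTTN, DHCR7, NADSYN1, FAM86C1P, RNF121 and NUMA1, with a median difference of 2.14. There CTTN, cortactin, an actin-binding protein, read 2993, 8735, 1815, 3723 and 1395, and PPFIA1, a liprin, read 1153, 4836, 1006, 1274 and 1098. CCND1, which lies close to these genes but before FADD, was not called higher there: it read 4590.2 in SkMel-5 and 4368 in SkMel-1. By its second probe set CCND1 read 1763 in SkMel-5 and 4469.4 in SkMel-1. In SkMel-28 HLA-DPA1, HLA-DPB1 and COL11A2 formed a run with a median difference of 5.00.

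Of the remaining genes that set a line apart, several were high in SkMel-1. SkMel-1 was high for FMOD, a small matrix proteoglycan, with 4357, 51.0, 83.7, 32.6 and 113 and a difference of 5.90 ± 0.17 (SE, limma adjusted p = 3.46e-08). It was also high for CDKAL1, a tRNA-modifying enzyme, with 7985, 199, 132, 339 and 152, and for UCHL1, a neuronal deubiquitinase, with 1775, 9.3, 14.3, 40.8 and 169.5. CYTL1, a secreted cytokine-like protein, read 2417, 2.1, 7.1, 1.9 and 1219, with Malme3M second, and STK32B, a kinase, read 2659, 113, 391, 4.5 and 380.4. SkMel-5 was high for KYNU, an enzyme of tryptophan breakdown, with 49.7, 1952, 223, 72.1 and 89.1. It was low for FXYD3, a regulator of the sodium pump, with 3525, 2.9, 2359, 152 and 1657 and a difference of -5.28 ± 0.38 (SE, limma adjusted p = 7.33e-06); a second probe set read 99.7 in SkMel-5 and had a smaller range, 3.06.

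SkMel-28 was high for GAPDHS, a glycolytic enzyme of sperm, with 34.5, 35.3, 5729, 40.1 and 1713, and Malme3M was the only other line above the filter level. SkMel-19 was high for MME, neprilysin, a surface peptidase, with 12.5, 9.1, 1817, 5553 and 2373, and SkMel-1 and SkMel-5 lay under the filter level. Malme3M was high for PTGDS, prostaglandin D synthase, with 38.4, 57.0, 23.9, 43.4 and 1749 and a difference of 5.43 ± 0.26 (SE, limma adjusted p = 6.34e-07), by a probe set that can bind related transcripts. It was low for WASF3, a regulator of actin branching, with 836, 819.6, 339.7, 766 and 14.4 and a difference of -4.61 ± 0.11 (SE, limma adjusted p = 1.83e-08).

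Markers of other cell types were mostly under the filter level. Of 15 fibroblast markers with a probe set 7 lay under it in all 5 lines and 3 were tested, with summed signals of 798 to 4363. The collagen gene COL1A2, a defining marker, read 39.9, 38.1, 92.7, 38.9 and 231, under the filter level in SkMel-1, SkMel-5 and SkMel-19, and its mean was too low to be tested. LUM, a matrix proteoglycan, read 282, 1443, 372, 299 and 226, highest in SkMel-5, and TWIST1, which mesenchymal and neural crest cells share, read 1777, 329, 394, 56.3 and 231, highest in SkMel-1. Of 15 blood cell markers 11 lay under the filter level in all lines, among them PTPRC, the pan-leukocyte marker, with 21.3, 13.8, 3.7, 3.7 and 16.8, and 2 were tested, with summed signals of 444 to 3064. LCP1, an actin bundler of leukocytes, read 2199.9, 114, 44.5, 45.9 and 111, high in SkMel-1, and LAPTM5, a lysosomal protein of leukocytes, read 43.8, 153, 90.6, 67.6 and 1106, highest in Malme3M.

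Of 11 keratinocyte and epithelial markers 7 lay under the filter level in all lines, and 4 were tested (median range 1.44, summed signals of 1883 to 3446). They were ESRP1, a splicing regulator, with 312, 1054, 674, 146 and 490.0; KRT18, a keratin of simple epithelia, with 781, 660.2, 575, 529 and 304; PERP, a desmosome protein, with 1812, 1416, 1327, 913 and 826; and SFN, with 263, 214, 559.5, 182 and 182. Of 9 endothelial markers 8 lay under the filter level in all lines and 0 were tested, with summed signals of 108 to 677.

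By median range, the translation machinery and genes often used for normalisation were the steadiest lists. Of 47 tested translation genes 0 had a range of at least 2 and 46 were in the top 5% of every line (median range 0.30). RPS3, RPL11, EIF4G2 and FAU had the largest ranges among those that passed the F test, from 0.71 to 1.01. Of 13 reference genes 2 had a range of at least 2 (median 0.52), against 17.0% of all tested genes. The first, GUSB, a lysosomal enzyme, read 1336, 1457, 600.3, 1328 and 2884. The second, POLR2A, the largest subunit of RNA polymerase II, read 613, 343, 1171, 817 and 1635. Both were highest in Malme3M. SDHA read 2265, 2146, 981, 2355 and 1534 and TFRC, the transferrin receptor, read 11198, 7398, 6114, 7029 and 6048, with SkMel-1 highest.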

How the data were processed

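Total RNA of the cell lines was labelled with biotin by the standard Affymetrix procedure, per the labels' protocols, and the authors deposited 1 table of signal intensity values on a linear scale made with GCOS, per the submitters' processing notes; its version, the summary of probes and the treatment of background are not given in the sources used here. Without its lowest and highest 2% of values, each DMSO array had a mean of 499.9, so the deposited intensity values share 1 scale and were used as they are. The number of arrays, 1 DMSO array a line, limits the precision.

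Of 22277 probe sets 62 were controls. Of the 22215 others 19064 carried 1 symbol in the platform annotation, 1043 several and 2108 none, and 19052 matched the RefSeq gene table (GRCh38.p14) by Entrez identifier, with 0 symbols changed. XIST and Y-linked genes (31 probe sets) were left out. Some members of the fixed group of genes named are not reported here. Genes were read by the probe set with the highest mean over all 12 arrays, log2(signal + 12) was used, where 12 lies near the 20th percentile of values (20.3% are below it), and the 7163 of 11939 genes with such a mean of at least 6.62 were tested with limma 3.58.1 in R 4.3.3 (lmFit and eBayes with a trend, treatment as covariate, Benjamini-Hochberg adjustment; median prior degrees of freedom 5.20). Counting and figures used Python 3.11.15, pandas 2.3.3 and matplotlib 3.10.9. The labels give each line its own number, so arrays of a line were joined by cell line.

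Tested on simulated data with 7163 genes, of which 200 were changed in each of 5 runs, the F test across lines called 14.0%, 63.6%, 90.4% and 99.6% of genes changed by 0.5, 1, 2 and 4 on the log2 scale, and the contrast of 1 line 32.4%, 80.4%, 95.6% and 100%. Of the F test's calls 3.04% were of unchanged genes. Errors were drawn independently for each array and few genes were changed, unlike in the data. The simulated share therefore does not measure false calls among the lines.

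Genes named are the 24 with the largest DMSO range, the 4 highest and 3 lowest called genes of each line, up to 4 members of each gene list with the largest range among those past the F test, the 16 genes of the shared top 5% with the smallest range, and a fixed group of lineage, receptor and immune genes; a few neighbours of these are named from the runs. The members and lists were chosen with earlier results of these data known. Alternatives were pseudocounts of 1 and 64, signals raised to the filter level, no filter or the 60th percentile, median centring, quantile normalization, another probe set, all 12 arrays, no treatment covariate, no trend, adjustment over the 5 contrasts, the top 10%, and each line left out.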

Additional observations from a re-analysis of the deposited data

Results flagged for a closer look

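In 25 of the 157 named genes 1 line lay so far from the other 4 DMSO arrays that its gap to the nearest line, as a share of the whole range on the log2 scale, passed Dixon's critical value of 0.71 for 5 samples. The share is given in parentheses. Chance alone gives about 1 gene in 20, and over all 7163 tested genes 470 (6.56%) passed. The named genes were in large part chosen for their range, so a high count among them is no separate result.

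SkMel-19 was low for COX7A2 (0.975), MFSD1 (0.894), HLA-B (0.825), FABP5 (0.812), ADORA2B (0.763) and TAP1 (0.748). COX7A2 stood out even among these, since the other 4 lines lay within a small part of the range. SkMel-19 was high for MAGEA4 (0.788).

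SkMel-1 was low for PMEL (0.919), TYRP1 (0.867), L1CAM (0.828), PRAME (0.763) and OCA2 (0.733), of which PMEL, TYRP1 and OCA2 are pigment genes. SkMel-1 was high for LCP1 (0.780), CDKAL1 (0.779), FMOD (0.775) and DUSP5 (0.743). Malme3M was low for MAGEA12 (0.870), KLHL9 (0.862) and WASF3 (0.746) and high for PTGDS (0.832) and AXL (0.725). SkMel-5 was high for LUM (0.736) and CCN1 (0.730). SkMel-28 was low for MET (0.769) and high for HSPD1 (0.881), where the whole range was only 0.15.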

How the results depend on the processing

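The number of genes past the F test was 4402 to 8330 over all settings tried, 69.8% to 92.2% of those tested; without the treatment covariate it was 5194. With each line left out in turn it was 5968 to 6123. Genes with a range of at least 2 numbered 2110 without a filter, 534 with the filter at the 60th percentile, and 877 to 1011 with a line left out. Without a filter the calls were 734 higher in SkMel-1, 629 lower in SkMel-5, 1089 higher in SkMel-28, 628 lower in SkMel-19, and 683 higher and 444 lower in Malme3M. With the filter at the 60th percentile they were, higher and lower, 235 and 296 in SkMel-1, 218 and 213 in SkMel-5, 180.0 and 246 in SkMel-28, 148 and 168 in SkMel-19, and 204 and 171 in Malme3M. These filters change how many genes are tested (11939 and 4776). With arrays centred on their median there were 405 higher in SkMel-19 and 471 lower in Malme3M; the cause was not tested.

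With a line left out the calls were 475 to 535 higher and 544 to 605 lower in SkMel-1, 384 to 482 and 418 to 501 in SkMel-5, 424 to 472 and 440.0 to 479 in SkMel-28, 285 to 328 and 421 to 497 in SkMel-19, and 498 to 543 and 326 to 348 in Malme3M. Genes of the shared top class numbered 702 at the top 10%, and 349 to 358 with a line left out. For the 35 pairs of a line and a gene named for it, 504 of 505 values under other settings kept direction and call, 0 reversed, and 1, NES in SkMel-28 with signals raised to the filter level (-3.93), lost the call.

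Of 76 other probe sets of named genes above the filter level, 56 had the same highest line, 58 the same lowest and 41 both. Signals under the filter level give no size of a difference, so ranges of genes absent from a line are uncertain. With 1 DMSO array a line, the spread between cultures of a line was not measured.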

Other observations

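Metallothioneins, small proteins that bind zinc, copper and cadmium, lie side by side in the genome, and 6 neighbours (MT2A, MT1E, MT1F, MT1G, MT1H and MT1X) were all called higher in SkMel-1, with a median difference of 1.73, and lower in SkMel-5, with a median difference of -1.74. MT2A read 11836, 2328, 6864, 7829 and 6039, with SkMel-1 highest and SkMel-5 lowest, and MT1X read 7161, 773, 3374, 4077 and 3305, in the same order at the ends. The range of MT1G was 2.49 in DMSO and 0.88 at 250 nM, and that of MT1H 2.76 and 1.16. Their probe sets can bind several metallothioneins, so the 6 genes are not 6 separate measurements.

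Pairs of lines differed by at least 2 on the log2 scale for 299 genes (SkMel-28 and Malme3M) to 474 genes (SkMel-1 and SkMel-5). Between SkMel-19 and Malme3M there were 374 such genes, of which 287 were higher in Malme3M. These counts are on the deposited scale only. For the calls of these 2 lines, the balance of higher and lower changed when arrays were centred on their median. Of the 11939 named genes, 6141 were at or above the filter level on all 5 DMSO arrays, 3756 on none and 668 on 1 array alone.

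A run of 10 genes lower in SkMel-1, with a median difference of -1.72, held KIZ, NXT1, the cystatin genes CST3, CST4, CST1 and CST2, then APMAP, ENTPD6, PYGB and GINS1. Cystatins inhibit cysteine proteases, and the sequences of CST1, CST2 and CST4 are alike, so their probe sets are not separate measurements. A run of 4 genes lower in SkMel-5, CDKN2A, CAAP1, PLAA and MOB3B, had a median difference of -3.44.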
